A study of Arabidopsis thaliana with 109 samples.

Results

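PIF7 is a bHLH transcription factor of Arabidopsis that binds DNA in seedlings when light is rich in far-red relative to red (low R:FR), the signal of a neighbouring canopy. The regions described here are the 276 PIF7 binding events of the list called at zeitgeber time 4 (ZT4) that have no event within 100 bp in the list called after 30 min of low R:FR. They are 276 of 1052 ZT4 events (26.2%), and are called ZT4-only events below. The other 776 ZT4 events (73.8%) have a 30 min event within 100 bp and are called shared events. In the other direction, 797 of the 1408 events of the 30 min list (56.6%) have a ZT4 event within 100 bp.

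The series holds 109 samples of light-grown seedlings, of which 80 are ChIP samples and 29 are RNA-seq libraries. The ChIP events come from the line pif457 PIF7:PIF7:4xMYC, a pif457 mutant that carries PIF7 joined to 4 copies of the MYC tag, precipitated with an antibody against MYC. The ZT4 list sets 2 low R:FR libraries of this line against 2 IgG libraries of wild type (Col-0) in white light. The 30 min list sets 2 libraries of the line after 30 min of low R:FR against 2 of the same line in white light. The lists thus differ in the antibody and the genotype of the control, and may differ in duration and hour. The effects of these cannot be told apart. The labels of the ZT4 libraries give no duration of low R:FR, and the titles of the 30 min libraries give no ZT. Another list, called the third list below, sets 3 libraries of the line in low R:FR against 3 in white light at ZT4, but its deposited description numbers these libraries the other way round from the labels, so its direction is not certain. Of its 998 events, 774 (77.6%) lie within 100 bp of an event of the 30 min list, which was called in low R:FR against white light. By those numbers it also holds 1 low R:FR library of the ZT4 list, and is therefore not independent of it. Each list has pooled its libraries, so no event has a value per replicate.

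Transcripts were taken from 3 tables of TPM, a read share scaled by transcript length. Table I holds wild type after 2 h of low R:FR and in white light, and after 2 h of low R:FR with 2 h of white light following, with 3 libraries each. Table II holds the PIF7-MYC line in white light and at 5, 10 and 30 min in low R:FR, with 3 libraries each. Table III holds pif457 and wild type, each after 30 min of low R:FR and in white light, with 2 libraries each. The labels do not state that replicates are separate cultures, so a p-value here covers only the spread between libraries, which may be technical. The hour of harvest is not in the titles of these libraries. The tissue is the whole seedling: in bulk RNA, fewer cells of a type and less RNA per cell cannot be told apart. Leaf genes (LHCB1.3, RBCS1A and CA1) and the root genes PYK10, PRX33 and PRX34 were found in every library. PRX33 and PRX34 had higher medians in table I (15 and 131 TPM) than in table II (3.83 and 33.8 TPM) and table III (4.46 and 28.8 TPM).

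In light with much red, active phytochromes bind PIF proteins and lead to their phosphorylation. PIF7 is phosphorylated and held largely outside the nucleus, and it is dephosphorylated and enters the nucleus in low R:FR. PIFs bind the G-box, written CACGTG, and a related E-box that reads CACATG, and they raise auxin synthesis genes and growth genes. The genes first raised include negative regulators of the same response, such as HFR1, PAR2 and PIL1, and homeodomain factors such as ATHB2 and ATHB4.

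The binding sequence was read from the k-mer that the event caller assigned to each event. The third list gives longer k-mers than the ZT4 list, and those of 10 ZT4-only events are shown. Most of these events are among the strongest or lie at genes that the results turn on. STY46 and P1R3 are shown as further examples. The letters are the caller's k-mer group and may differ from the genome at single bases, and n stands for any base. Capitals mark the G-box, the E-box or, where neither is present, the ACGT core.
AT4G34540: gatCACGTGgcag
TPPJ: tgaCACGTGt
ARP1: ggatCACGTGcca
FPF1: catCACGTGa
XTH15: cttCACGTG
STY46: atcCACGTGggcta
ST2A: ggnCACGTGcc
BEE1: gCACGTGnga
P1R3: gCACATGggag
MAKR6: tgACGTggaga
The first 8 hold a whole G-box, which ends the k-mer at XTH15, P1R3 holds an E-box and MAKR6 only the ACGT core. Across all 64 ZT4-only events that have a k-mer in the third list, the k-mers run over 9 to 15 bases.

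The G-box k-mer had a smaller share among ZT4-only than among shared events. CACGTG was in the k-mer of 93 of 276 ZT4-only events (33.7%), against 565 of 776 shared events (72.8%). For CACATG the counts were 38 ZT4-only events (13.8%) and 63 shared events (8.12%). Among the other k-mers, ACGTGA stood at 29 ZT4-only events (10.5%) and 26 shared events (3.35%), CCACGT at 26 (9.42%) and 35 (4.51%), and GTGGGT at 15 (5.43%) and 8 (1.03%). These k-mers have 6 bases. ACGTGA and CCACGT hold the ACGT core of the G-box, and GTGGGT does not. No k-mer was given for 3 ZT4-only events and 2 shared events.

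The ZT4-only events also had lower values of strength. The caller's ChIP strength (its IP column, a value of the authors for each event) had a median of 145.8 over ZT4-only events, with quartiles of 123.7 and 172.4 and a highest value of 467.0. Over shared events the median was 223.4, the quartiles 167.9 and 311.2 and the highest value 1735.0. The control strength was close, with medians of 47.85 and 50.9. The caller's fold over control had medians of 3.0 at ZT4-only and 4.65 at shared events, and the −log10 q had medians of 8.155 and 24.41. A −log10 q under 10 was found for 160 ZT4-only events (58%) and 129 shared events (16.6%). Only 1 of the 100 strongest ZT4 events is ZT4-only.

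Strength and the G-box were therefore set against each other in 4 bins of like size, from the weakest to the strongest ZT4 events. In that order, ZT4-only events made up 57%, 31.6%, 13.5% and 2.66% of the events. Within the weakest bin (strength 92.1 to 149.0) a G-box k-mer was found at 32% of ZT4-only and 61.9% of shared events. In the second bin the shares were 38.1% and 65.4%, and in the third they were 25.7% and 73.3%. The strongest bin holds only 7 ZT4-only events, with shares of 57.1% and 82.4%. Strength was not matched within a bin. The events of a list are not replicates of a condition, so these shares carry no test.

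**Figure D1:**
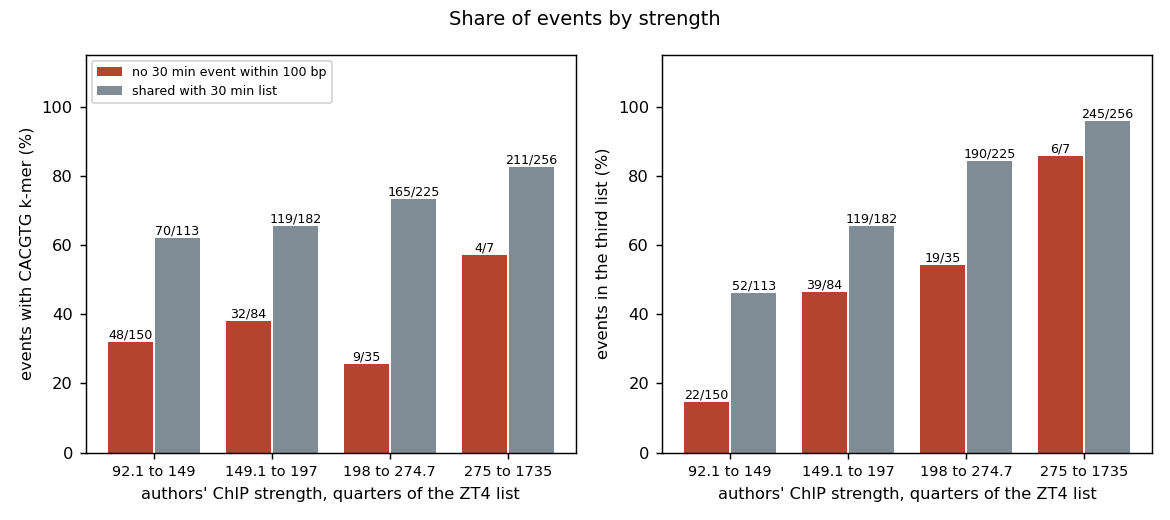
Shares of ZT4-only events (red bars) and shared events (grey bars) in 4 bins of the ZT4 list by the authors' ChIP strength, with the counts above the bars. The left panel gives the percentage with a CACGTG k-mer and the right panel the percentage with an event of the third list within 100 bp. In every bin the red bar is lower, with 32% against 61.9% for the G-box in the weakest bin.

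The ZT4-only events fall into 3 kinds by their surroundings. A first kind lies beside a 30 min event, at 101 to 500 bp, and has 82 members (29.7%). A second kind of 68 (24.6%) lies farther away and has an event within 100 bp in the third list. The third kind of 126 (45.7%) lies farther away and is in neither of the other lists. In all, 127 ZT4-only events (46%) lie over 10 kb from any 30 min event. They are spread over chromosomes 1 to 5 with 80, 41, 58, 41 and 56 events.

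Events beside a 30 min event were mostly a weaker neighbour of a shared event. Of these 82, 78 have a shared ZT4 event within 600 bp, at a median of 206 bp. The shared event is the stronger in 69 of those 78, with median strengths of 130.2 for the ZT4-only event and 245.6 for the shared one. CACGTG was in the k-mer of 21 ZT4-only events and 63 shared events of these 78 pairs. At PHYB, which encodes the photoreceptor phytochrome B, the ZT4-only event at position 8139499 of chromosome 2 had a strength of 380.8 and the k-mer CCCACG. The shared event 148 bp away had a strength of 1124.2 and the k-mer CACGTG. At the gene of the homeodomain-leucine zipper factor ATHB4 (AT2G44910), the ZT4-only event at position 18521398 of chromosome 2 had 145.5 and CGTGAA, and the shared event 185 bp away had 808.5 and CACGTG. At BIM1, a bHLH partner of the brassinosteroid factor BES1, the values were 111.6 with CACATG for the ZT4-only event and 632.4 with CACGTG for the shared event 213 bp away. The caller places neighbouring events from 1 read profile, so such pairs are not 2 separate measurements, and whether the ZT4-only partner is a binding site of its own was not tested.

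A few pairs ran the other way. At AT5G13100 the ZT4-only event at position 4156403 of chromosome 5 had a strength of 242.9, against 191.3 for the shared event 170 bp away, and its fold over control of 18.1 was the highest of all ZT4-only events. Its k-mer was GCACGT, and that of the shared event CGTGAA. The control strength of this ZT4-only event was low, at 13.4, against a median of 47.85 over all ZT4-only events. PAR2 is not such a pair, as its shared event had a strength of 145.6, against 124.3 for the ZT4-only event at position 21761161 of chromosome 3. That ZT4-only event had a fold of 17.8 with a control strength of only 7.0, so a low control lies behind that fold.

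The second kind, apart from 30 min events but in the third list, had the highest median strength and G-box share of the 3 kinds. Its median strength was 175.0, against 135.1 for events beside a 30 min event and 137.9 for events in neither list. CACGTG was in the k-mer of 40 of its 68 events (58.8%), in 23 of 82 beside a 30 min event (28.0%) and in 30 of 126 in neither list (23.8%). Of the 126 events in neither list, 45 (35.7%) had a k-mer with no ACGT and no CACATG. Over all ZT4-only events, 86 of 276 (31.2%) have an event of the third list within 100 bp, against 606 of 776 shared events (78.1%). Counted from the third list, 85 of its 998 events (8.52%) lie near a ZT4-only event. The share was higher at higher strength, from the weakest to the strongest bin, as 14.7%, 46.4%, 54.3% and 85.7% of ZT4-only events, and 46%, 65.4%, 84.4% and 95.7% of shared events. The fold of the third list had a median of 3.5 at ZT4-only and 3.95 at shared events. In 48 of the 86 ZT4-only events, both lists assigned a CACGTG k-mer.

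**Figure D2:**
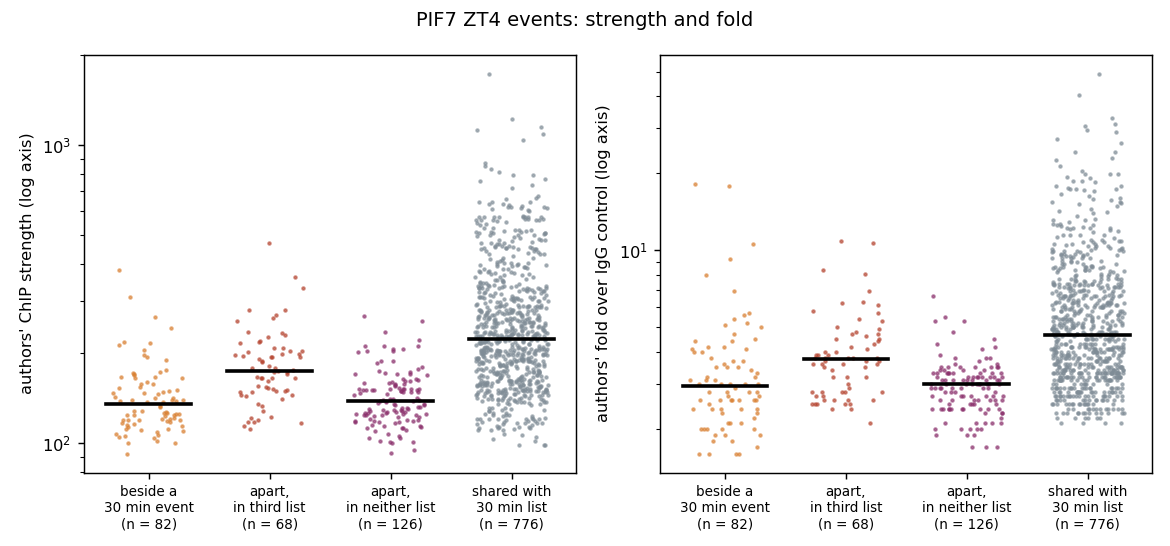
The authors' ChIP strength (left) and fold over IgG control (right), both on log axes, of the 3 kinds of ZT4-only event and of the shared events, with 1 point per event and the median as a black line. The events apart from the 30 min list that are in the third list have a median strength of 175.0, and the other ZT4-only kinds of 135.1 and 137.9, against 223.4 for shared events.

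Among the 10 strongest ZT4-only events, genes that were called in an RNA comparison and genes that were not are both found. The first was at position 16497731 of chromosome 4, within 1 kb of AT4G34540, with a strength of 467.0 and a fold of 10.7 over control. Its k-mer is the first one shown above, and the third list gives it a fold of 8.4. CPK28, a calcium-dependent protein kinase, had 361.0 at position 26459727 of chromosome 5, with CGTGAA. TPPJ, a trehalose-6-phosphate phosphatase, had 330.0 at position 26018924 of chromosome 5. ARP1, an RNA-binding protein, had 279.6 inside the gene, FPF1 (flowering promoting factor) had 279.1 with a fold of 10.8 in the third list, and VND1, a factor of xylem vessel formation, had 269.0. Among events over 500 bp from any 30 min event and not in the third list, the strongest was at AT4G35720, with 266.5 and ACGTGA. Of these, AT4G34540, TPPJ, FPF1, VND1 and AT4G35720 were not called in any RNA comparison, and CPK28 and ARP1 are given below. FPF1, VND1 and AT4G35720 stood at 2.91 TPM or less in every library, a level at which a change is hard to call. AT4G28240, with a strength of 264.0 and CACATG beside a shared event, rose by 1.76 in the line after 30 min (limma, adjusted p = 2.61e-05).

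The window of 100 bp cuts through a continuous range. Just outside the group, shared events at BTI1, AT4G01245 and BZIP61 lay 91, 92 and 100 bp from a 30 min event, with strengths of 253.0, 222.1 and 152.8. Just inside it, events at AFP3, BUB3.1 and GT18 lay 101, 103 and 107 bp away, with strengths of 172.8, 168.7 and 158.0. In all, 42 ZT4-only events lie at 101 to 200 bp.

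Places relative to genes had like shares in both groups of events. Gene spans are those of a RefSeq table of assembly TAIR10.1, set beside TAIR10 positions, so places are given only coarsely. Of ZT4-only events 25.4% were inside a protein-coding gene, against 23.6% of shared events. Within 1 kb of one were 45.7% and 47.7%, at 1 to 3 kb 22.5% and 24.2%, and farther away 6.52% and 4.51%. A nearest gene within 3 kb was given to 258 ZT4-only events, which makes 236 genes. Of these, 83 also have a shared event and 153 do not. SQE3, a squalene epoxidase of sterol synthesis, had 3 ZT4-only events, and 20 genes had 2.

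The genes near ZT4-only events were mostly transcribed in white light. Their median level in wild type of table I was 13.28 TPM, against 15.17 TPM for genes near shared events only and 6.133 TPM for all 26712 protein-coding genes. In table III the medians were 12.68, 13.43 and 5.96 TPM. Under 1 TPM in table I stood 12.7% of the genes near ZT4-only events and 31.2% of all protein-coding genes.

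Lists of shade, light and growth genes were then read against the events. Of 86 genes in 7 lists, 9 lay within 3 kb of a ZT4-only event and 29 within 3 kb of a shared one. Among 10 shade regulators the counts were 3 and 8, among 11 phytochromes and PIFs 2 and 3, among 16 auxin synthesis and response genes 1 and 9, and among 7 light regulators 1 and 2. Of 6 growth-related HLH and brassinosteroid genes the counts were 2 and 4, of 22 strongly transcribed photosynthesis genes 0 and 3, and none of 14 clock genes was near either. Of the 9 genes, IAA4, an auxin-responsive repressor, was the one with a ZT4-only event and no shared event. That event, at position 17550083 of chromosome 5 with a strength of 222.0 and CACATG, lies 86714 bp from the nearest 30 min event. ATHB4, PAR2, PHYB and BEE1, a bHLH factor of the brassinosteroid response, had both kinds. By limma, 8 of the 10 shade regulators rose in wild type after 2 h and 9 in the line after 30 min, and 13 and 6 of the 16 auxin genes, with none lowered in these lists. Over all genes tested 1.24% rose and 0.734% fell at 2 h, and 3.8% rose and 1.03% fell at 30 min in the line. After 10 min in the line 4 shade regulators and 5 auxin genes rose, where 4.19% of all genes did, and in wild type after 30 min 6 and 2 rose, where 0.119% did. In pif457 after 30 min 9 shade regulators and 6 auxin genes were lower than in wild type, where 5.04% of all genes were, and in white light none was called in either list. Of the 6 growth-related genes 3 rose in wild type after 2 h and 3 in the line after 30 min, and none fell in either. In pif457 after 30 min 1 of them was lower than in wild type. The counts that follow are for wild type at 2 h and the line at 30 min. Of the phytochromes and PIFs 2 rose and 3 fell at 2 h and 3 rose and 1 fell at 30 min, and of the light regulators 1 fell at 2 h and 1 rose at 30 min. Of the clock genes 5 fell at 2 h, and 2 rose and 1 fell at 30 min, while 2 photosynthesis genes fell at 2 h. HFR1, PIF3, BBX21 and the brassinosteroid receptor gene BRI1 lay within 3 kb of a ZT4-only event that is nearer to another gene, and they are named after their values were seen.

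Genes were called raised or lowered where limma gave an adjusted p under 0.05 over all genes of a table. In wild type after 2 h of low R:FR against white light, 25 of 223 tested genes near ZT4-only events rose (11.2%) and 3 fell (1.35%). Over all genes tested, 1.24% rose and 0.734% fell. Leaving out 1 library at a time gave 15 to 24 calls in place of 28, with 18, 15 and 16 without the first, the second and the third low R:FR library and 17 without the third white light library. Among genes with a shared event as well, 16 of 79 rose (20.3%), against 9 of 144 genes with no shared event (6.25%) and 58 of 513 genes near shared events only (11.3%). The difference between these groups of genes was not tested. Median log2 changes were 0.18 for genes with both, 0.09 for genes with ZT4-only events alone, 0.15 for genes with shared events only and −0.01 for all genes.

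After 30 min the PIF7-MYC line showed the same order. There 54 of 224 genes near ZT4-only events rose (24.1%) and 3 fell (1.34%), where 3.8% of all genes rose and 1.03% fell. With a shared event as well, 34 of 79 rose (43%), without one 20 of 145 (13.8%), and near shared events only 173 of 515 (33.6%). Centring each library on its median gene moved the split over all genes to 563 raised and 592 lowered (48.7% of calls raised, against 78.6%). It left 40 raised and 9 lowered near ZT4-only events (81.6% of calls raised, against 94.7%), of which 10 raised and 6 lowered had no shared event. The median change of genes near ZT4-only events exceeded that of all genes by 0.17 (log2) with and without centring.

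After 10 min in the line, 15 of 224 genes near ZT4-only events rose (6.7%) and 10 fell (4.46%), where 4.19% of all genes rose and 2.24% fell. This count rests on single libraries: it was 51 without the second white light library, 2 without the third, and 6 without the first. Without the first 10 min library it was 4, and without the third 3. In a fit to the compared groups alone, no gene near a ZT4-only event was called at 10 min. Median centring moved the split over all genes to 885 raised and 1012 lowered, and that near ZT4-only events to 15 and 14.

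**Figure D3:**
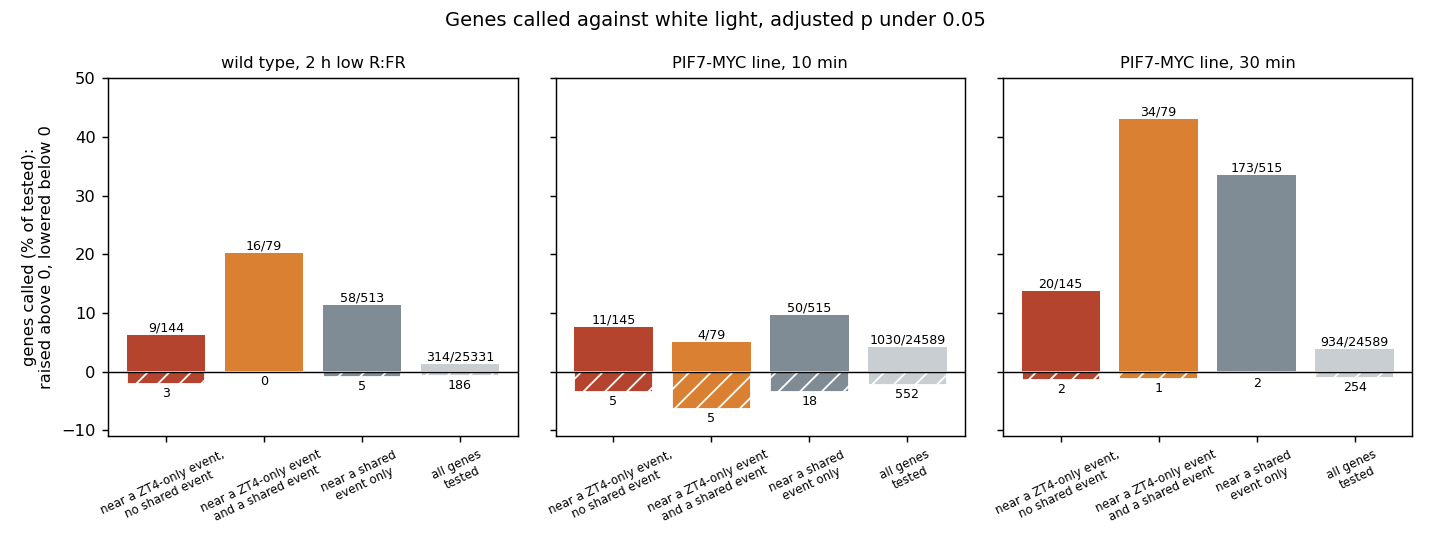
Percentage of tested genes called raised (above 0) and lowered (below 0, hatched) at an adjusted p under 0.05 in 3 comparisons with white light, for genes near a ZT4-only event alone, genes with both kinds of event, genes near shared events only, and all genes, with counts at the bars. In the PIF7-MYC line after 30 min, 13.8%, 43%, 33.6% and 3.8% of these groups were raised. Each event is counted for its nearest gene only, so a gene near a ZT4-only event alone may have a shared event close by.

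In wild type after 30 min (table III), 1 of 224 genes near ZT4-only events rose (0.446%) and none fell by limma, where 0.119% and 0% of all genes did. An unadjusted p under 0.05 was found for 29 of them, and the called gene is ATHB4. Median centring gave 12 raised and 1 lowered there, and 250 raised and 128 lowered over all genes. The interaction of genotype and light was called for 1 of 224 genes near ZT4-only events, ATHB4 again, whose change was lower in pif457 than in wild type. That call was lost without any 1 of the 4 wild-type libraries or replicate 2 of pif457 in white light, and without replicate 2 of pif457 at 30 min 33 genes were called. Over all genes the interaction was negative for 0.0328% and positive for 0.0082%. In pif457 against wild type in white light no gene near a ZT4-only event was called by limma in either direction, 12 had an unadjusted p under 0.05, and over all genes 0.0123% were higher and 0.0164% lower. After 30 min of low R:FR, 13 of 224 were lower in pif457 than in wild type (5.8%) and none was higher, where 5.04% of all genes were lower and 0.209% higher. That share lies near the background. The 13 became 1 without replicate 1 of pif457 at 30 min, 85 without replicate 2 of it, and 1 and 3 without replicate 1 and 2 of wild type at 30 min. In replicate 1 of pif457 at 30 min, rRNA and organellar transcripts took 23.1% of TPM, the highest value of table III, whose lowest is 4.09%. With these genes removed, 8 were higher and 25 lower near ZT4-only events, and 433 and 1934 over all genes. With median centring the counts were 11 and 23 near ZT4-only events, and 951 and 1381 over all genes. The median change of all genes was −0.16 as deposited and −0.08 and 0.05 (log2) under these scalings, and that of genes near ZT4-only events lay 0.10, 0.07 and 0.10 below it.

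The line and the treatment were checked on the targeted genes. PIF7 stood at 0.35 and 1.47 TPM in pif457 after 30 min and at 1.24 and 0.84 TPM in pif457 in white light, against 21.6 and 23.4 TPM in wild type after 30 min and 28.0 and 25.4 TPM in wild type in white light. In the PIF7-MYC line, in a table normalized separately, it stood at 70.0 to 137 TPM. PIF4 stood at 3.12 and 6.36 TPM in pif457 after 30 min and at 11.9 and 11.3 TPM in pif457 in white light, against 13.7 and 14.8 TPM in wild type after 30 min and 32.5 and 47.1 TPM in wild type in white light. PIF5 (PIL6 in RefSeq) stood at 1.60 and 2.45 TPM in pif457 after 30 min and at 2.71 and 4.03 TPM in pif457 in white light, against 19.2 and 21.3 TPM in wild type after 30 min and 33.2 and 42.7 TPM in wild type in white light. For each of these genes the values of pif457 lie below every wild-type value of table III, for PIF4 by little between pif457 in white light and wild type after 30 min. HFR1, a shade-induced gene, rose by 1.72 (log2) in wild type at 30 min (limma, adjusted p = 0.0494).

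ATHB4 had the largest called change near ZT4-only events in the line at 30 min. It stood at 89.8, 95.9 and 92.7 TPM in the PIF7-MYC line after 30 min, against 3.49, 3.06 and 2.28 TPM in white light (log2 change 4.58, SE 0.15, adjusted p = 7.51e-08). In wild type it stood at 87.1 and 77.2 TPM after 30 min, against 3.48 and 3.63 TPM in white light (4.19, SE 0.23, adjusted p = 0.000714). The groups lie far apart in both. In pif457 after 30 min it stood at 3.89 and 6.22 TPM, which is −3.80 (SE 0.23, adjusted p = 0.00112) against wild type at 30 min. The last comparison shares its wild-type libraries with the one before it. After 2 h in wild type the values were 5.64, 6.87 and 8.37 TPM, against 6.53, 2.72 and 2.56 TPM in white light, which overlap (adjusted p = 0.383).

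BIM1 moved the same way with a smaller size. It stood at 212, 197 and 236 TPM in the line after 30 min, against 36.6, 31.6 and 33.9 TPM in white light (2.62, SE 0.08, adjusted p = 6.35e-08). After 2 h in wild type it had a log2 change of 0.86 (adjusted p = 0.024), and in pif457 at 30 min one of −1.34 against wild type (adjusted p = 0.0167). PHYB had 42.6, 47.3 and 50.7 TPM in wild type after 2 h, against 19.8, 17.4 and 24.3 TPM in white light (1.16, SE 0.15, adjusted p = 0.00321). In the line after 30 min it rose by 0.78 (adjusted p = 7.05e-05). PAR2, an HLH inhibitor, rose by 1.72 after 2 h in wild type and by 0.99 after 30 min in the line. In wild type after 30 min BIM1, PHYB and PAR2 were not called. Their log2 changes there were 1.38, 0.97 and −0.27 (limma, adjusted p = 0.0867, 0.231 and 0.907). The call of PAR2 in the line was lost without its first 30 min library (adjusted p = 0.0528). The call of BIM1 after 2 h was lost without the second or the third library of either group (adjusted p = 0.0662 to 0.0917) and with a replicate block (adjusted p = 0.051), and its call in pif457 without either wild-type library at 30 min or replicate 1 of pif457 (adjusted p = 0.0848 to 0.193). ATHB4, BIM1, PHYB and PAR2 all have a shared event as well.

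Among genes with a ZT4-only event and no shared event, MAKR6 had the largest called rise in wild type after 2 h, and ERF4 the largest in the line after 30 min. These comparisons differ in genotype, duration and table, and the difference between them was not tested. MAKR6, of a family of membrane-associated kinase regulators, has events at positions 21454401 and 21454538 of chromosome 5, with strengths of 152.2 and 151.8, over 40 kb from a 30 min event. It stood at 168, 187 and 177 TPM in wild type after 2 h, against 19.4, 18.1 and 24.6 TPM in white light (3.05, SE 0.16, adjusted p = 9.03e-06). After 2 h of white light following, its values were 6.82, 4.87 and 6.42 TPM. In the line after 30 min it had 22.6, 18.4 and 22.3 TPM, against 22.9, 14.4 and 24.1 TPM in white light, which overlap. In wild type after 30 min it had 21.2 and 18.5 TPM, against 10.0 and 9.56 TPM in white light, which do not overlap, and it was not called (0.95, SE 0.17, adjusted p = 0.112). In pif457 it had 17.0 and 19.1 TPM after 30 min, against 10.6 and 9.57 TPM in white light. AT3G54200, with an event at position 20065193 of chromosome 3, came next in wild type after 2 h. It stood at 43.4, 72.6 and 85.0 TPM, against 13.2, 18.3 and 12.0 TPM in white light (4.28-fold on the log2(TPM + 1) scale, adjusted p = 0.00424), and in the line after 10 min it fell by 0.46 (adjusted p = 0.0344). The 10 min call was lost without any single library other than the second white light one (adjusted p = 0.0642 to 0.133), and had an adjusted p of 0.0611 with a replicate block. ERF4, an ethylene response factor that acts as a repressor, has an event at position 5124283 of chromosome 3 with a strength of 140.0 and CACGTG. A stronger shared event lies close by, at position 5125562, with a strength of 672.7 and CACGTG. It is nearer to AT3G15220 and is not counted for ERF4. ERF4 stood at 71.9, 74.8 and 80.7 TPM in the line after 30 min, against 20.8, 16.9 and 17.3 TPM in white light (2.00, SE 0.11, adjusted p = 4.06e-06). In wild type after 2 h it had 14.9, 14.3 and 14.3 TPM, against 6.65, 8.31 and 11.2 TPM in white light, which do not overlap, and it was not called (0.70, adjusted p = 0.253). In pif457 at 30 min it was lower than in wild type, with 11.1 and 11.8 TPM against 36.7 and 20.7 TPM (−1.20, adjusted p = 0.0401). That last call was lost without replicate 1 of wild type (adjusted p = 0.271) or replicate 1 of pif457 at 30 min (adjusted p = 0.165).

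IAA4 and CPK28, both without a shared event, rose after 2 h. IAA4 stood at 79.5, 108 and 108 TPM in wild type after 2 h, against 44.7, 37.7 and 39.3 TPM in white light (1.25, SE 0.16, adjusted p = 0.0037). In the line after 30 min it had 46.0, 41.6 and 46.8 TPM, against 40.9, 44.1 and 45.5 TPM in white light, which overlap. CPK28 stood at 31.4, 35.2 and 32.2 TPM in wild type after 2 h, against 15.2, 18.6 and 18.7 TPM in white light (0.88, adjusted p = 0.0237), and rose by 0.29 in the line after 30 min (adjusted p = 0.0392). CPK28 is the one gene with no shared event that rose in both, out of 13 genes near ZT4-only events that did. Both calls of CPK28 are near the threshold. The one at 30 min was lost without any single one of its 6 libraries and with median centring (adjusted p = 0.052 to 0.169), and the one at 2 h without any single one of its 6 libraries other than the second white light library (adjusted p = 0.0501 to 0.101).

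ST2A and BEE1 hold a ZT4-only event with a G-box inside the gene and a shared event elsewhere. ST2A, a sulfotransferase of the jasmonate pathway, stood at 49.0, 53.5 and 63.0 TPM in wild type after 2 h, against 4.13, 2.58 and 4.31 TPM in white light (3.60, SE 0.24, adjusted p = 5.52e-05). BEE1 stood at 49.3, 41.2 and 50.4 TPM, against 6.09, 3.80 and 7.97 TPM in white light (2.83, adjusted p = 0.00552). In both genes every low R:FR library lies above every white light library. XTH15, a xyloglucan endotransglucosylase/hydrolase of the cell wall with an event at position 8140135 of chromosome 4, rose by 0.80 in the line after 10 min (adjusted p = 0.0188). It stood at 2.78 and 3.99 TPM in pif457 after 30 min, against 14.0 and 13.5 TPM in wild type (−1.77, adjusted p = 0.0289). In white light it had 2.74 and 5.11 TPM in pif457, against 7.62 and 14.5 TPM in wild type, which do not overlap, and it was not called (−1.27, adjusted p = 0.723). ARP1 stood at 0.70 and 2.41 TPM in pif457 after 30 min, against 12.8 and 9.74 TPM in wild type (−2.34, adjusted p = 0.0209). Both pif457 calls were lost without either wild-type library at 30 min or replicate 1 of pif457 (adjusted p = 0.109 to 0.259), and the 10 min call of XTH15 without the first or the third white light library or the third 10 min library (adjusted p = 0.0565 to 0.0831).

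**Figure D4:**
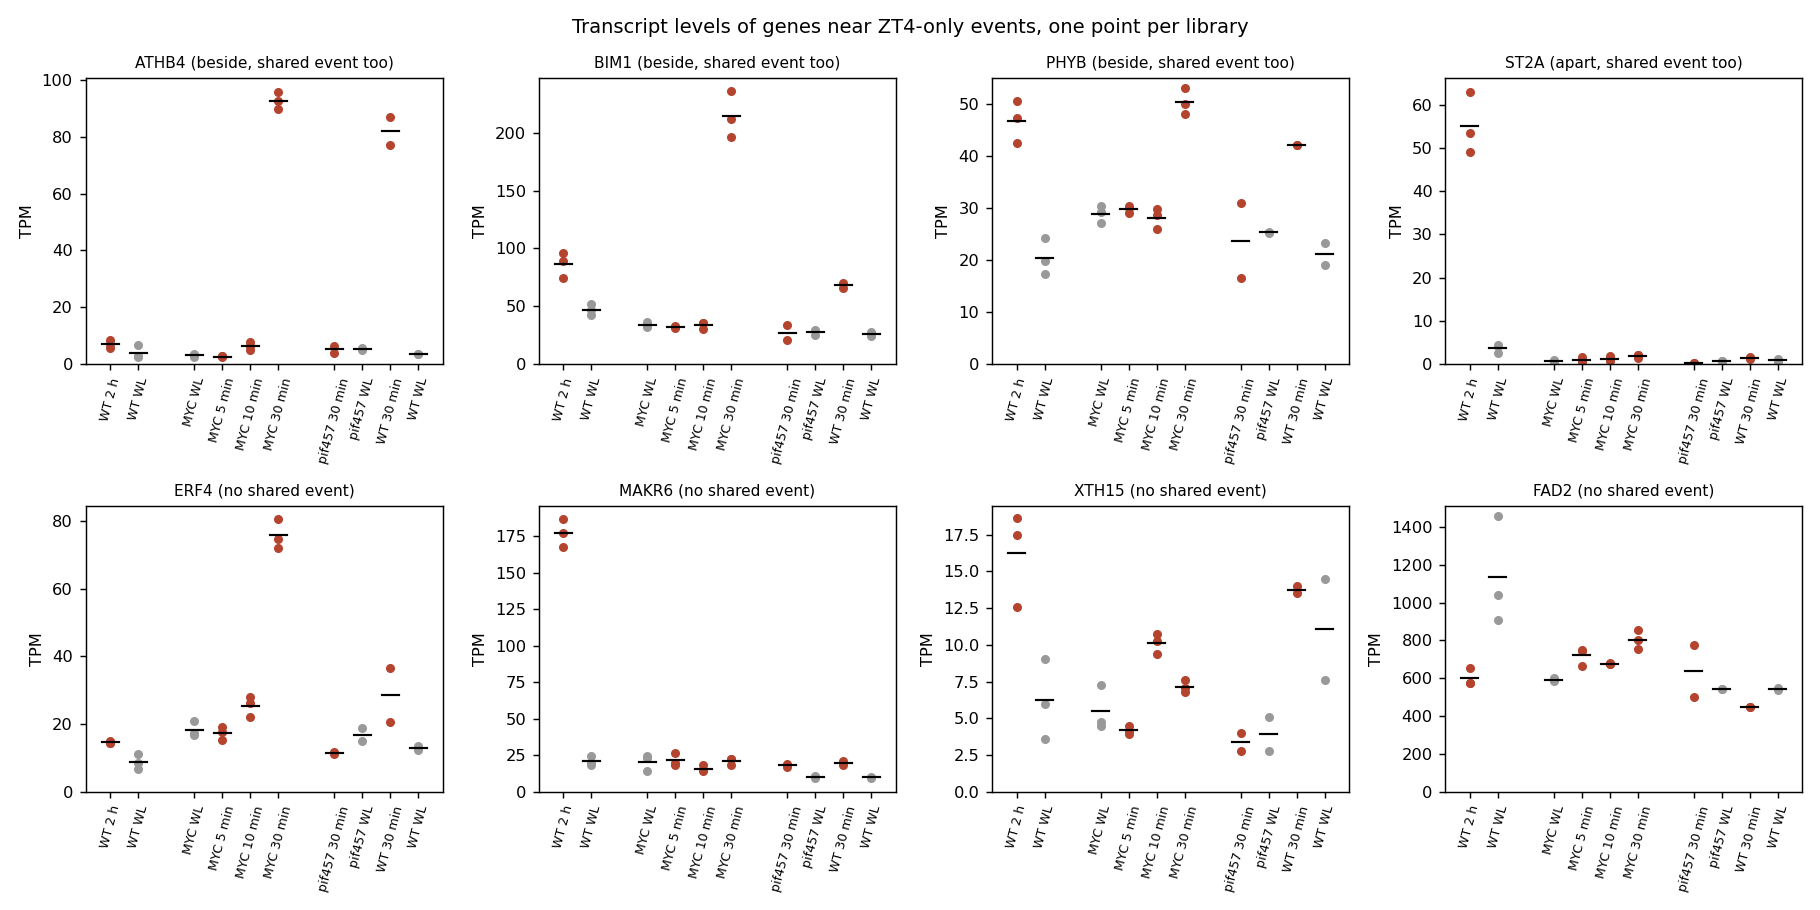
TPM of 8 genes near ZT4-only events, with 1 point per library, the group mean as a black line, low R:FR in red and white light (WL) in grey, for wild type of table I, the PIF7-MYC line of table II and pif457 and wild type of table III. ATHB4 and BIM1 are high at 30 min in the line, at 89.8 to 95.9 and 197 to 236 TPM, while MAKR6 and ST2A are high at 2 h in wild type, at 168 to 187 and 49.0 to 63.0 TPM.

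Lowered genes were few at 2 h in wild type and at 30 min in the line, and several genes moved in opposite directions between comparisons. FAD2, an oleate desaturase of membrane lipids with an event inside the gene and no shared event, had 576, 574 and 655 TPM in wild type after 2 h, against 1460, 1042 and 908 TPM in white light (−0.89, adjusted p = 0.0246). In the line after 30 min it had 754, 854 and 805 TPM, against 602, 591 and 585 TPM in white light (0.44, adjusted p = 0.00345). AT3G56360 fell by 0.69 after 2 h in wild type and rose by 0.62 after 30 min in the line. MIPS1, a synthase of myo-inositol phosphate, rose by 1.78 after 2 h in wild type (adjusted p = 0.00029) and fell by 0.92 after 10 min in the line (adjusted p = 0.00727). The 10 min call of MIPS1 was lost in a fit to the compared groups alone. In the line after 30 min MIPS1 had 277, 303 and 262 TPM, against 218, 168 and 245 TPM in white light, which do not overlap. The calls of FAD2 and AT3G56360 after 2 h were lost without any single low R:FR library, and that of AT3G56360 also without the first or the third white light library (adjusted p = 0.0541 to 0.0943). With a replicate block they had an adjusted p of 0.051 and 0.0582. These comparisons differ in genotype, duration and table, and the difference between them was not tested. MYB16, a factor of cuticle formation, stood at 12.2, 13.8 and 13.5 TPM in the line after 30 min, against 29.7, 24.6 and 32.2 TPM in white light (−1.07, SE 0.11, adjusted p = 0.000382). CAT2, a peroxisomal catalase, stood at 1192, 1266 and 1125 TPM in the line after 10 min, against 1995, 1793 and 2633 TPM in white light (−0.82, adjusted p = 0.0154), and 0.057 without the third 10 min library.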

How the data were processed

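Per the submitters' processing notes, RNA-seq was processed with STAR 2.6.0c and RSEM 1.3.0 and ChIP with Bowtie2 2.1.0 on TAIR10. The authors' deposited tables hold TPM for 33602 gene models, and no step on replicates is stated. The deposited event lists were called with GEM, per the deposited file descriptions. Its version is not given in the sources used here. They hold, for each event, the authors' signal in ChIP and control, a fold (a ratio of these) and a −log10 q, which was computed by the authors. TPM keeps no read depth, so the depth per library is unknown and no counting interval is given.

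Events were matched by position. A ZT4-only event has no 30 min event within 100 bp, and an event goes to the nearest of 26712 protein-coding genes (RefSeq, TAIR10.1) within 3 kb. Each table was fitted whole, on log2(TPM + 1) with its pseudocount of 1 and no block, by limma 3.58.1 under R 4.3.3, with the prior variance following expression. Genes listed at 0 throughout a table did not enter. A fold on this scale understates changes of low genes. p was adjusted by Benjamini-Hochberg over 25331, 24589 and 24384 genes in tables I, II and III, for each comparison. The procedure was tested on simulated data. No value column stayed without a sample (0 unmapped). Recovery and 5 min libraries entered the fits without a comparison of their own. Python 3.11.15, numpy 2.4.6, pandas 2.3.3 and matplotlib 3.10.9 were used for events and figures.

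The events, gene lists and tests were chosen with earlier results of these data known, so counts and medians describe them and no list test was run. Named genes are those of the 10 strongest events and of the 10 of highest fold, up to 5 raised and 5 lowered genes per comparison (largest change, mean of at least 5 TPM, groups that do not overlap), listed genes near a ZT4-only event, PIF4, PIF5, PIF7, ATHB2, PIL1 and HFR1, and the 3 events on either side of the 100 bp limit. Some genes of this rule are left unprinted. ARP1 and IAA4 come in by strength and by list. GAI and GASA6, and STY46 and P1R3 among the k-mers, are named outside this rule. Alternatives were a pseudocount of 0.1, a filter at 1 TPM, leaving out each library, a replicate block, fitting only the compared groups, other distances, events above the median strength and a −log10 q of at least 10. Median centring, and rescaling without rRNA and organellar genes, were added after seeing the data. Histone ChIP samples were not analysed here.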

Additional observations from a re-analysis of the deposited data

Results flagged for a closer look

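The low R:FR response of ATHB4 (HB4 in RefSeq) after 30 min differed between pif457 and wild type by −4.29 on the log2 scale (SE 0.33, adjusted p = 0.00883, limma interaction term in table III with 2 libraries per group). It was singled out because a direct test of the difference between genotypes passed. It is the 1 of 224 tested genes near ZT4-only events that passed (0.446% negative, 0% positive), where the term was negative for 0.0328% and positive for 0.0082% of all genes. An unadjusted p under 0.05 was found for 32 of them. Leaving out 1 library at a time gave 0 to 33 called genes, the highest without replicate 2 of pif457 at 30 min. The call of ATHB4 was lost without either wild-type library in white light, either one at 30 min, or replicate 2 of pif457 in white light (adjusted p = 0.0528 to 0.1), and kept without each of the other 3 libraries.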

How the results depend on the processing

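Counts below are genes near ZT4-only events called in either direction, and the cause of a change was not tested unless stated. With a window of 50, 200 or 500 bp there were 302, 234 and 194 ZT4-only events, and 116 had a −log10 q of at least 10. An event of the third list lay within 500 bp of 146 ZT4-only events, against 86 within 100 bp. Fewer genes enter with a distance of 1 kb, which gave 14 calls at 10 min in the line (25 at 3 kb), 7 in pif457 against wild type at 30 min (13), and 0 in wild type at 30 min and for the interaction (1 each). The median level in table I was then 14.2 TPM. Fewer genes also enter with events above the median strength: 8 at 2 h, 5 and 9 at 10 and 30 min in the line, 0 in wild type at 30 min, 3 in pif457 at 30 min and 0 for the interaction. A filter at 1 TPM gave 14 in wild type at 30 min, 5 and 32 in pif457 in white light and at 30 min, and 12 for the interaction. Removing rRNA and organellar genes gave 3 in wild type and 33 in pif457 at 30 min, and median centring 13, 34 and, for the interaction, 3. A fit to the compared groups alone gave 0 at 10 min and 35 at 30 min in the line, against 25 and 57, and could not be run for the interaction.

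Leaving out single libraries gave 15 to 24 calls at 2 h, 2 to 51 and 41 to 61 at 10 and 30 min in the line, 1 in wild type at 30 min, 0 and 1 to 85 in pif457 in white light and at 30 min, and 0 to 33 for the interaction. Among named genes, 170 single values lost their call under some alternative and 558 kept it, and none turned its direction. Of pairs of libraries with the same replicate number, 0 of 9, 4 of 18 and 4 of 12 in tables I, II and III had a correlation of residuals over 0.1, the highest being 0.0613, 0.331 and 0.366 and the medians −0.00875, −0.0579 and −0.0166. The numbers were therefore not taken as pairs. A replicate block gave 19 calls at 2 h, 15 and 47 at 10 and 30 min in the line, 1 in wild type and 11 in pif457 at 30 min, and 1 for the interaction. Depth is unknown for TPM.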

Other observations

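Of the genes below, GA2OX6 and UGT72E1 were named by the rule, and GAI and GASA6 were not. All have a shared event as well and were not described above. GA2OX6, a gibberellin 2-oxidase that inactivates the hormone, stood at 21.1, 27.0 and 23.9 TPM in wild type after 2 h, against 4.44, 2.77 and 1.74 TPM in white light (log2 change 2.70, SE 0.37, adjusted p = 0.00486, limma). In the PIF7-MYC line after 30 min it had 2.56, 2.76 and 2.66 TPM, against 2.11, 2.45 and 1.22 TPM in white light. GAI, a DELLA repressor of gibberellin responses, rose by 1.11 after 2 h in wild type and by 1.01 after 30 min in the line, and GASA6, a gibberellin-regulated peptide gene, by 1.18 and 1.02. UGT72E1, a glucosyltransferase of the phenylpropanoid pathway, stood at 16.5 and 22.5 TPM in pif457 after 30 min, against 50.6 and 32.4 TPM in wild type (adjusted p = 0.0417, limma). That call was lost without either wild-type library at 30 min, without replicate 1 of pif457 and with a replicate block (adjusted p = 0.0535 to 0.312).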
